A study of Mus musculus with 27 samples.

Results

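The superior colliculus (SC) and the lateral geniculate nucleus (LGN), the midbrain and thalamic targets of retinal axons, were compared in mouse pups at postnatal day 3 (P3). The comparison used 6 of the 27 libraries of the series, chosen by the region named in their titles: 3 libraries of SC and 3 of LGN. All 6 came from C57Bl/6 wild-type mice, and no allele or treatment differed between the regions. Every pup carried the same tracer, fluorescently conjugated cholera toxin B, which is taken up by retinal ganglion cells and fills their axons. Per the labels' protocols, each eye received 1 µl of it at P0.5, brains were taken at P3.5, and labelled fields were cut under a fluorescence stereomicroscope from vibratome sections 150 to 200 µm thick. From the same kind of dissection, 1 library of the pretectal area (PTA) and 2 libraries pooled from the remaining brain sections shared the fit and are given by level. The regions are dissected pieces of tissue that hold neurons, glia and vessels, and the labels do not divide the LGN into dorsal and ventral parts. No label says that the libraries came from separate animals, so p-values measure the spread between these libraries, which may be technical in part. Among SC and LGN libraries, the Y-linked gene Ddx3y was found only in those numbered 1. The libraries numbered 1 therefore held tissue of animals that those numbered 2 and 3 did not. Whether libraries 2 and 3 came from separate animals is not given. In bulk tissue, fewer cells of a type and less RNA per cell cannot be told apart.

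The SC is a layered midbrain structure that receives a map of the retina in its upper layers and directs orienting movements. The dorsal LGN relays retinal signals to the visual cortex through excitatory thalamic neurons, while the neighbouring ventral LGN and intergeniculate leaflet hold many inhibitory neurons that arise from the prethalamus. In the first postnatal days retinal axons refine their maps in both places, guided by gradients of Eph receptors and ephrins and by spontaneous activity. Midbrain, thalamus and prethalamus arise from different segments of the embryonic brain, and their neurons keep sets of transcription factors that mark their origin.

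The SC libraries held 11299434, 10166271 and 12504605 estimated counts and the LGN libraries 10312546, 13769685 and 12785258. Levels are given as CPM, the count of a gene per library scaled to a common size on scaled library sizes. The correlation of log2 CPM across genes was 0.973 to 0.980 among SC libraries, 0.974 to 0.981 among LGN libraries and 0.939 to 0.964 between the regions, where genes are not independent replicates. SC replicate 1 stood apart from the other SC libraries in several gene sets. For 16 genes with an LGN mean of at least 10 CPM, the other 2 SC libraries held at most 5% of the LGN mean, and in SC replicate 1 these genes stood at a median of 14.4% of the LGN mean (quartiles 8.99% to 18.7%), with 11 of the 16 above 10%. Chosen the same way for each of the other 5 libraries, the corresponding medians were 0.296% to 3.24%, and no gene exceeded 10%. These sets held only 5 and 4 genes for SC replicates 2 and 3, and 10 or 11 for the LGN libraries. For SC replicates 2 and 3 the rule left out genes above 5% of the LGN mean in SC replicate 1, so the sets differ. Among the 16 genes, Ttr, Clic6 and Kcne2 stood at only 1.34%, 3.76% and 1.29% of the LGN mean in SC replicate 1. The others included the prethalamic factors Sp9, Dlx1, Dlx6 and Isl1, the thalamic factor Gbx2, and the monoamine genes Slc6a4, Slc18a2 and Hdc. Folds of such genes are given with and without that library. Meningeal genes, at 619, 1680.2 and 1416 CPM in SC, against 1208, 1315 and 1015 CPM in LGN, and vascular genes, at 316, 536 and 452 CPM in SC, against 398, 396 and 335 CPM in LGN, were lowest in that library among the SC libraries. The origin of these differences was not tested. LGN libraries 1 and 3 differed from the rest in choroid plexus genes, whose summed level was 32.7, 8.68 and 9.88 CPM in SC, against 989, 16.3 and 5515 CPM in LGN. The 4 tested Y-linked genes did not pass between the regions, but the libraries numbered 1 stood apart in both: 73.8, 0 and 0 CPM in SC, against 67.1, 0 and 0 CPM in LGN for Ddx3y.

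**Figure D1:**
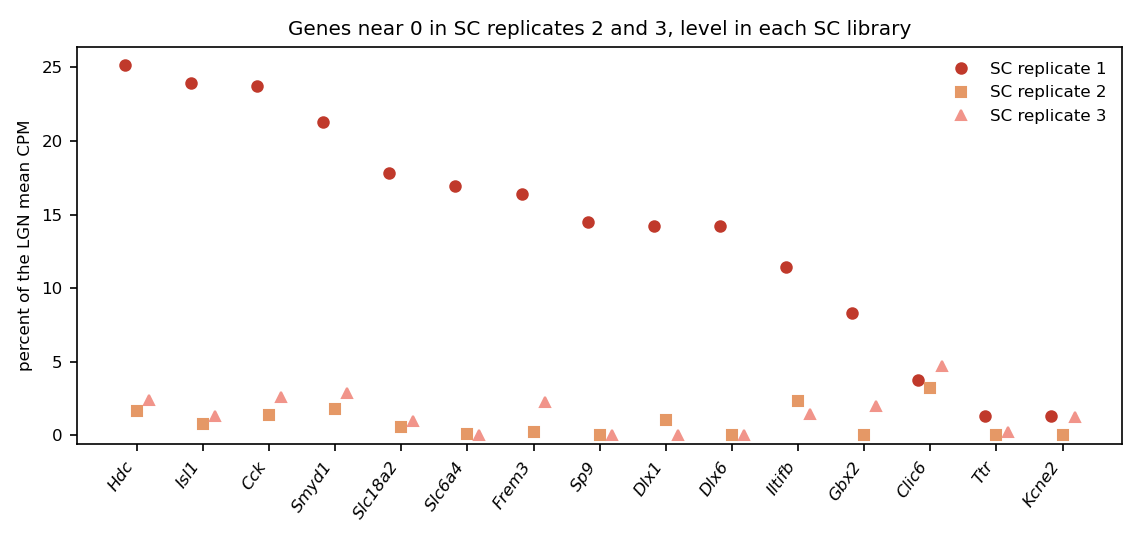
Level of 15 of the 16 genes in each SC library as percent of the mean CPM of the LGN libraries (vertical axis), with 1 symbol per library and the genes sorted by their level in SC replicate 1. In SC replicate 1, 11 genes lie above 10%, while the other 2 SC libraries lie at or below 5% for every gene, which is how the genes were chosen.

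Of 15288 genes tested, 1557 (10.2%) passed an adjusted p of 0.05: 674 (4.41%) were higher and 883 (5.78%) lower in SC than in LGN. List counts below are to be read beside these shares. A difference of at least 2-fold was found in 706 genes (4.62%), 346 higher (2.26%) and 360 lower (2.35%). Differences of at least 8-fold, log2 fold 3 or more, numbered 69 higher and 66 lower. The median log2 fold of all genes tested was 0.02. SC and LGN libraries did not overlap in 4743 genes (31.0%), among them 1552 of the 1557 that passed. The 15 largest rises among the named genes included 9 of the dorsal midbrain factors described next, and the 15 largest falls included prethalamic factors, monoamine genes and choroid plexus genes. With 1 library left out in turn, the number of genes that passed lay between 770, without SC replicate 2, and 1462, without SC replicate 1; without the other 4 it was 986 (LGN replicate 1), 1001 (LGN replicate 2), 1035 (LGN replicate 3) and 1184 (SC replicate 3).

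**Figure D2:**
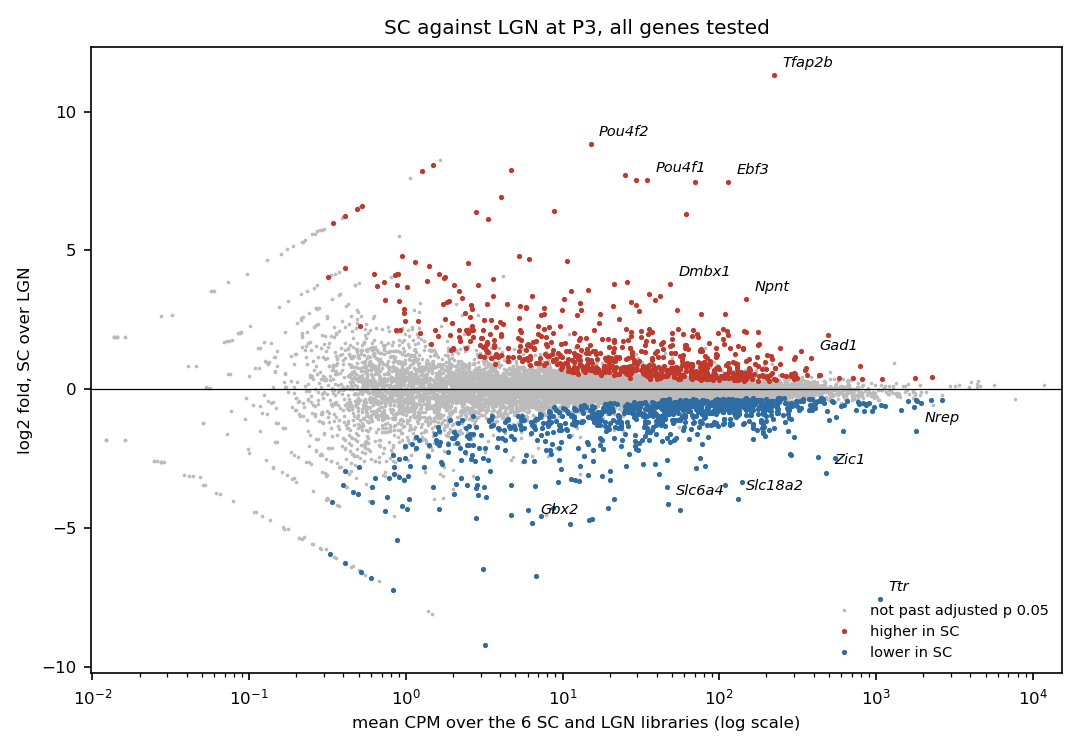
Log2 fold of SC over LGN (vertical axis) against mean CPM over the 6 libraries (horizontal axis, log scale) for the 15288 genes tested, with the 674 genes higher in SC in red and the 883 lower in blue. Tfap2b stands at the top and the choroid plexus gene Ttr near the bottom right, and genes at low CPM passed only at large folds.

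Dorsal midbrain transcription factors were far higher in SC. Of the 28 genes of this list, all tested, 21 were higher and 2 lower, with a median log2 fold of 2.82 against 0.02 for all genes. Tfap2b, an AP-2 factor at chr1:19208914-19238576 (GRCm38), had 379.7, 403 and 561 CPM in SC, against 0.195, 0.221 and 0.0822 CPM in LGN. Its log2 fold was 11.30 ± 0.30 (SE), the largest among the named genes (adjusted p = 1.62e-07). Pou4f1 (Brn3a), a POU factor of retinal ganglion cells and of tectal neurons, at chr14:104461676-104467999, had 61.0, 75.7 and 70.1 CPM in SC, against 0.292, 0.369 and 0.411 CPM in LGN (log2 fold 7.54 ± 0.34 (SE), adjusted p = 5.66e-06). In both genes the lowest SC library exceeded the highest LGN library by a wide margin. Pou4f2 (Brn3b), its relative at chr8:78433010-78436645, had 31.4, 28.3 and 30.9 CPM in SC, against 0, 0.147 and 0 CPM in LGN. With 2 counts over the 3 LGN libraries, both in LGN replicate 2, the ratio of SC to LGN was 545 (95% counting interval 151 to 4508), and the adjusted p was 4.31e-05. Pax7, a paired-box factor of the dorsal midbrain, had 130.3, 146 and 141 CPM in SC, against 0.389, 1.40 and 0.411 CPM in LGN (log2 fold 7.47 ± 0.49 (SE), adjusted p = 3.35e-05), and its log2 fold was 8.40 without LGN replicate 2. Pax3, its close relative, was likewise higher (log2 fold 4.71 ± 0.68 (SE), adjusted p = 0.00219). Dmbx1, a homeobox factor of the midbrain, had 80.7, 99.4 and 93.1 CPM in SC, against 5.45, 7.96 and 6.24 CPM in LGN (log2 fold 3.79 ± 0.20 (SE), adjusted p = 1.15e-05). Barhl1, a homeobox factor, and Mab21l1 and Mab21l2, 2 related nuclear proteins, were also among the largest rises, with log2 folds of 7.53, 6.30 and 7.73 (adjusted p = 0.000589, 3.35e-05 and 0.000103). The log2 fold of Mab21l2 was 7.08 without LGN replicate 2. Both Mab21l genes lie within other genes, and the strand setting of the authors' counting is not given in the sources used here, so their counts are less certain.

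The list did not move as a whole. Otx1, a homeobox factor at chr11:21994764-22002897, was lower in SC, with 3.27, 1.83 and 3.79 CPM in SC, against 10.8, 13.9 and 16.3 CPM in LGN (log2 fold -2.19 ± 0.27 (SE), adjusted p = 0.000915). Otx2, its relative and a determinant of midbrain identity, picked after its values were seen, went the other way, with 179.7, 194 and 170.1 CPM in SC, against 27.1, 32.8 and 67.8 CPM in LGN (log2 fold 2.09 ± 0.28 (SE), adjusted p = 0.00160). Nkx2-2, a homeobox factor of ventral progenitors and of prethalamic neurons, was the other lower member, with 16.0, 5.02 and 6.34 CPM in SC, against 43.2, 43.5 and 27.6 CPM in LGN (log2 fold -2.06 ± 0.39 (SE), adjusted p = 0.00912; -2.74 without SC replicate 1). The remaining 5 members did not pass. Lhx1, a LIM factor, had log2 fold 0.02 (adjusted p = 0.9752). The GATA factor Gata2 and the midbrain-hindbrain factor En1 had log2 fold 0.33, adjusted p = 0.605 and log2 fold 0.90, adjusted p = 0.640. Tal2, a partner of GATA factors in midbrain inhibitory neurons, had log2 fold 2.26, adjusted p = 0.0504 (0.0171 with the 6 SC and LGN libraries alone), and Bhlhe23 had 2 counts in LGN and 24 in SC. With each library left out in turn, 18 or 19 members stayed higher by count. Gata3 and Meis1 missed the threshold in all 6 refits (highest adjusted p 0.128 and 0.0915) and Lhx5 without SC replicate 2 (adjusted p = 0.0581), and the other 18 rises passed in all 6.

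Thalamic transcription factors moved both ways, more often down. Of 21 listed genes, 20 were tested: 10 were lower in SC, 3 higher and 7 did not pass (median log2 fold -0.83). Tcf7l2, a Wnt effector that marks the thalamus, pretectum and habenula, had 155, 50.5 and 197 CPM in SC, against 731, 695 and 731 CPM in LGN (log2 fold -2.42 ± 0.39 (SE), adjusted p = 0.00400). SC replicate 2 was the lowest library. Gbx2, a homeobox factor needed for thalamic neurons to reach the cortex in mouse, at chr1:89927956-89931179, had 1.03, 0 and 0.247 CPM in SC, against 17.4, 14.5 and 5.34 CPM in LGN (log2 fold -4.79 ± 0.73 (SE), adjusted p = 0.00298). With SC replicate 1 left out, 3 counts remained in SC and the level was 91.9 times lower than in LGN (counting interval 31.2 to 447; adjusted p = 0.00213), against 27.8 times with it. Prox1, a homeobox factor of dorsal thalamic neurons, had 13.5, 6.85 and 12.02 CPM in SC, against 40.1, 39.7 and 69.7 CPM in LGN (log2 fold -2.20 ± 0.28 (SE), adjusted p = 0.00124). Zic4, a zinc-finger factor, had 44.1, 15.4 and 16.8 CPM in SC, against 192, 223 and 351 CPM in LGN (log2 fold -3.32 ± 0.52 (SE), adjusted p = 0.00351; -3.98 without SC replicate 1). The nuclear receptor Nr2f1 (COUP-TFI; log2 fold -1.41 ± 0.15 (SE), adjusted p = 0.000501) and the inhibitor of bHLH factors Id4 (log2 fold -0.85 ± 0.12 (SE), adjusted p = 0.00193) were lower as well. Among members that did not pass, Lhx9, a LIM factor shared by thalamus and tectum, had log2 fold -0.29, adjusted p = 0.143, Foxp2 log2 fold -0.26, adjusted p = 0.374, and Nr2f2, the relative of Nr2f1, log2 fold -0.77, adjusted p = 0.218, though it passed without SC replicate 3 (log2 fold -1.23, adjusted p = 0.0499).

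Rorb, Lhx2 and Etv1 were higher in SC. Rorb, a nuclear receptor at chr19:18930605-19111196 that is also known from cortical layer 4, had 80.0, 82.3 and 78.7 CPM in SC, against 20.6, 20.3 and 18.7 CPM in LGN (log2 fold 2.01 ± 0.10 (SE), adjusted p = 9.92e-06). Lhx2, a LIM factor that patterns the thalamus and the eye field, at chr2:38339281-38369733, had 67.0, 53.3 and 56.5 CPM in SC, against 15.4, 11.5 and 15.7 CPM in LGN (log2 fold 2.06 ± 0.15 (SE), adjusted p = 5.09e-05). Etv1, an ETS factor at chr12:38779380-38868215, had 46.3, 53.9 and 58.5 CPM in SC, against 15.8, 13.3 and 17.8 CPM in LGN (log2 fold 1.76 ± 0.16 (SE), adjusted p = 0.000181). For each of the 3 genes every SC library exceeded every LGN library, and they passed in all 6 refits. A lack of overlap held for 1552 of the 1557 genes that passed. The falls were fewer without SC replicate 2, where 7 of the 10 passed: Rora (adjusted p = 0.0678), Zic1 (adjusted p = 0.0619) and Zic2 did not, and Zic2 also missed without SC replicates 1 and 3 or LGN replicate 3 (adjusted p up to 0.0749).

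Prethalamic transcription factors were lower in SC without exception among those that passed. All 11 members tested had a negative log2 fold, 9 passed, and the median was -3.86. In the mouse these genes mark the inhibitory neurons of the prethalamus, among them those of the ventral LGN. Dlx1, a homeobox factor of forebrain inhibitory neurons, had 5.26, 0.386 and 0 CPM in SC, against 39.9, 35.1 and 35.8 CPM in LGN (log2 fold -4.28 ± 0.79 (SE), adjusted p = 0.00834). Dlx2, Dlx5 and Dlx6, its family members, had log2 folds of -3.86, -4.31 and -4.35 (adjusted p = 0.00720, 0.00857 and 0.0107). Sp9, a zinc-finger factor at chr2:73271925-73284706, had 15.5, 0 and 0 CPM in SC, against 115, 102 and 103 CPM in LGN. Most SC counts of Dlx1 and Sp9 came from replicate 1. Without SC replicate 1, Sp9 had 0 counts in SC and was at least 796-fold lower, bounded by 3 counts over the 2 libraries (adjusted p = 1.5e-05), against 20.4 times with it. On the same basis Dlx1 was 195 times lower (adjusted p = 9.61e-05), Dlx6 at least 87.5-fold lower and Dlx5 at least 23.1-fold lower. For Dlx2 2 counts remained, a ratio of 67.2 (counting interval 18.4 to 558). Isl1, a LIM factor, had 2.93, 0.0965 and 0.165 CPM in SC, against 18.6, 5.38 and 12.7 CPM in LGN (log2 fold -3.49 ± 0.85 (SE), adjusted p = 0.0304), and Six3, a homeobox factor of the forebrain and eye, had 7.24, 0.965 and 2.63 CPM in SC, against 38.4, 11.9 and 46.3 CPM in LGN (log2 fold -3.14 ± 0.64 (SE), adjusted p = 0.0132). Without SC replicate 1 the log2 folds were -6.40 for Isl1 and -4.12 for Six3. Pax6, with log2 fold -2.19 (adjusted p = 0.0277), was lower as well. Sp8, a zinc-finger relative of Sp9, did not pass with all libraries (log2 fold -3.10, adjusted p = 0.0657). It passed without SC replicate 1 (log2 fold -5.61, adjusted p = 0.0124), without LGN replicate 2 (0.0425), with DESeq2 (0.00866) and with no filter on low counts (0.0488). Leaving out 1 library left 6 to 9 falls. Isl1 missed without SC replicates 2 or 3 or LGN replicates 1 or 3 (adjusted p up to 0.101), Sp9 without SC replicate 2 or any LGN library (up to 0.0721), Six3 without SC replicate 3 (0.0523) and Pax6 without any library except LGN replicate 3 (up to 0.0930). Over the whole list the summed level was 54.1, 16.0 and 16.1 CPM in SC, against 309.9, 227 and 273 CPM in LGN.

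**Figure D3:**
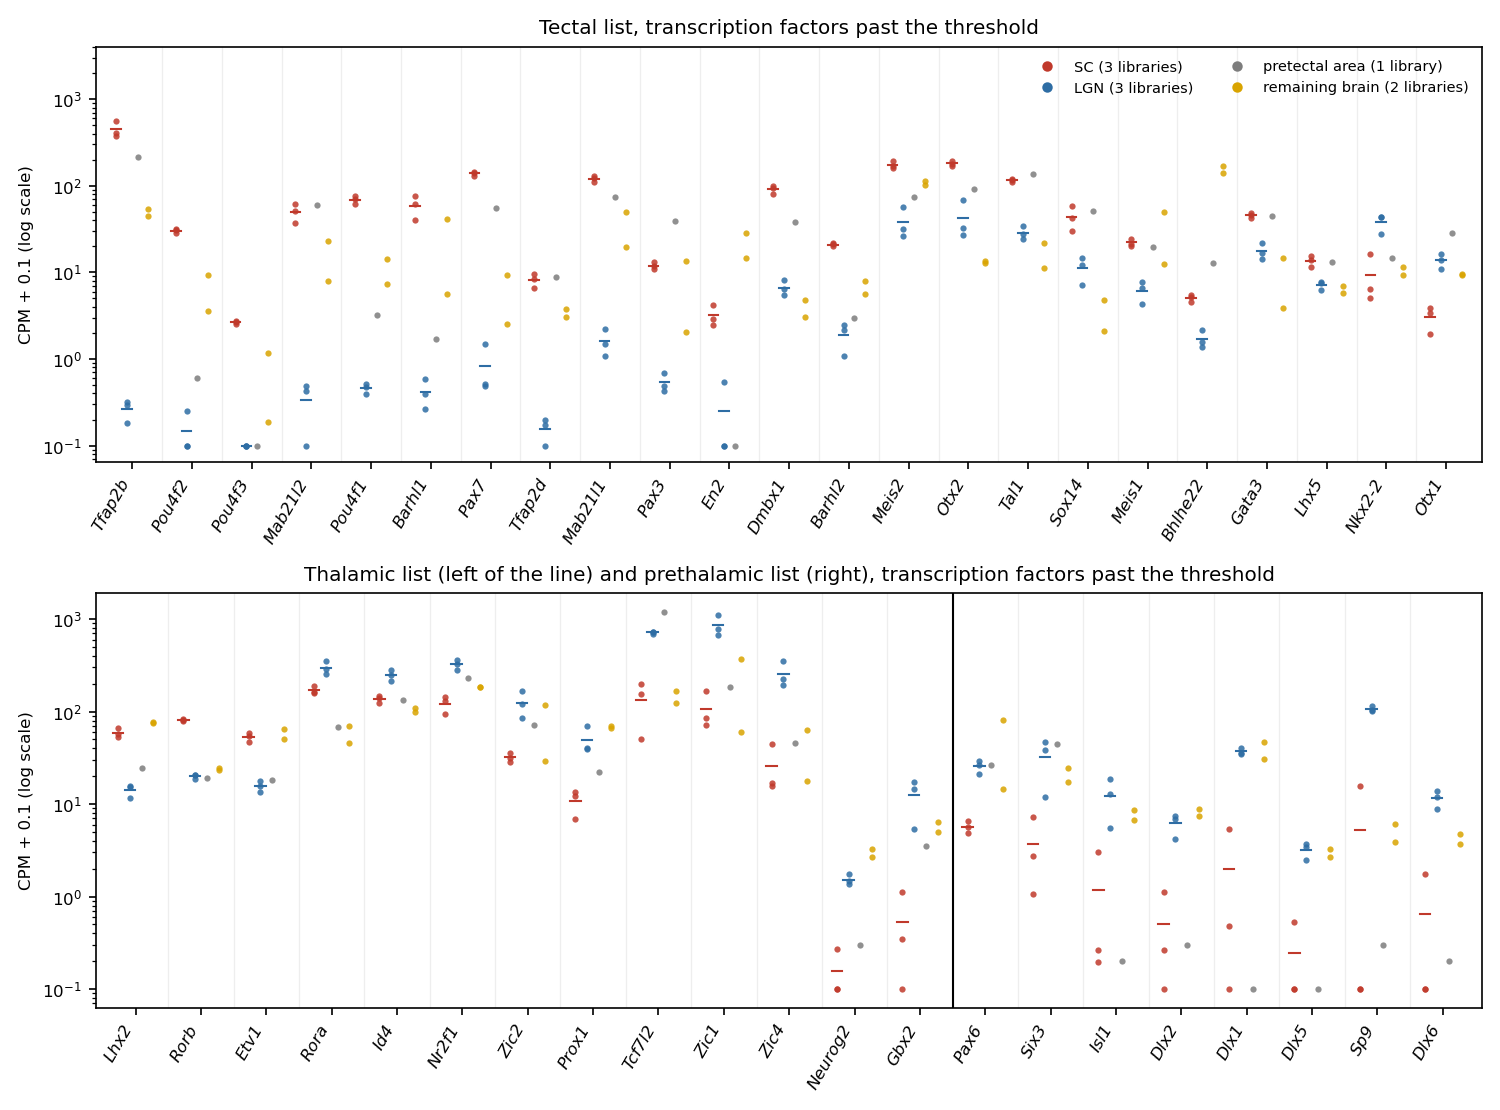
Level of transcription factors that passed, 8 of the 9 prethalamic ones among them, as CPM + 0.1 on a log scale, with the tectal list above and the thalamic and prethalamic lists below. Each point is 1 library, in the order SC, LGN, PTA and remaining brain, and bars mark the SC and LGN means. Tectal genes such as Tfap2b and Pax7 are high in SC and low in LGN, the Dlx genes are low in SC, and in Dlx1 and Sp9 SC replicate 1 stands above the other 2 SC libraries.

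The starts of 4 tectal and 3 thalamic list members are printed. They have the smallest adjusted p in each list among the called members with an entry in the promoter table. The 3 thalamic ones went against the direction of most called members of their list. Each sequence is the 250 bases before the first start that RefSeq (GRCm38.p6) lists, 5′ to 3′ on the gene's strand, with any match to 1 of 4 motifs in capitals. The motifs, searched on both strands, were 4 short runs, and no matches overlap in these windows. AGATAA and its variant TGATAA are read by zinc-finger factors of the Gata family. TAATCC is read by Otx proteins, and CAGCTG is an E-box read by bHLH factors. The first 4 belong to tectal genes higher in SC:

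Tfap2b: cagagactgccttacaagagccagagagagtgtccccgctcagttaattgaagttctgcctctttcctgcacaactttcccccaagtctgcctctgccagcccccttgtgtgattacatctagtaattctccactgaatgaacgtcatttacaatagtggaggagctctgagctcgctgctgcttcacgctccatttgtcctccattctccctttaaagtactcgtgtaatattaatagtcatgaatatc
Pou4f1: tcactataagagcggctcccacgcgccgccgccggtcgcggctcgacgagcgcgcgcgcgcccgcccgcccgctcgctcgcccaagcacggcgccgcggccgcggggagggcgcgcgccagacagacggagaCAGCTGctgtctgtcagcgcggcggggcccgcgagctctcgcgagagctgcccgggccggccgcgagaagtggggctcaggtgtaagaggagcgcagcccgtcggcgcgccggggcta
Dmbx1: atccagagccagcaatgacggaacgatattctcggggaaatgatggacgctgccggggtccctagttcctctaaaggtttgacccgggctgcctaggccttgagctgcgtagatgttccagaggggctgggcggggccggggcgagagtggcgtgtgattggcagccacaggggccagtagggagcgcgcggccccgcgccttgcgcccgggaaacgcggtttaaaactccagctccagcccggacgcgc
Pax7: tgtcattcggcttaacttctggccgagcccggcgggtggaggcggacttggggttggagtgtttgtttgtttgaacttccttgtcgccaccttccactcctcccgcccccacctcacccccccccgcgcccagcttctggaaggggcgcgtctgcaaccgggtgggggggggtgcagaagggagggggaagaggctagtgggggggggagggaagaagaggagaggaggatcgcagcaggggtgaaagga

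The next 3 belong to thalamic-list genes that were nevertheless higher in SC, and Gbx2, added after its values were seen, is the listed thalamic gene with the largest fall:

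Rorb: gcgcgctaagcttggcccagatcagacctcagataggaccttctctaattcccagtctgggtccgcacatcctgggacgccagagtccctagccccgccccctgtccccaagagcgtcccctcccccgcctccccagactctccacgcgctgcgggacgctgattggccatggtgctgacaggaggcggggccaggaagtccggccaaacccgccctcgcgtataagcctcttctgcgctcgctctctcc
Lhx2: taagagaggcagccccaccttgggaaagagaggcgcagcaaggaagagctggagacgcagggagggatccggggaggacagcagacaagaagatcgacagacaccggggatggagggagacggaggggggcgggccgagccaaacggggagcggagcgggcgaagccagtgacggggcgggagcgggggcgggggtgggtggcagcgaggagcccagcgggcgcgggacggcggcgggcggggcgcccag
Etv1: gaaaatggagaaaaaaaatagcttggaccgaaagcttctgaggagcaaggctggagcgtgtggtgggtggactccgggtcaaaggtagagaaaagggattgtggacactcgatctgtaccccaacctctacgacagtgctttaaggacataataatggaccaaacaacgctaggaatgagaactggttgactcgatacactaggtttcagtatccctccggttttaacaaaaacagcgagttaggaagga
Gbx2: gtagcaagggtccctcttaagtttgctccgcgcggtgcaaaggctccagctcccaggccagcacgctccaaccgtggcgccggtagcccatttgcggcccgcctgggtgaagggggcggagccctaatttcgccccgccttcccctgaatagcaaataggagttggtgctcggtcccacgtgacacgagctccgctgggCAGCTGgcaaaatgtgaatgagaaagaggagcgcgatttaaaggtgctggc

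The windows lie at chr1:19211804-19212053 (plus strand) for Tfap2b, chr14:104468000-104468249 (minus strand) for Pou4f1, chr4:115939927-115940176 (minus strand) for Dmbx1 and chr4:139832969-139833218 (minus strand) for Pax7. Those of the second set lie at chr19:19111197-19111446 (minus strand) for Rorb, chr2:38339031-38339280 (plus strand) for Lhx2, chr12:38779832-38780081 (plus strand) for Etv1 and chr1:89931177-89931426 (minus strand) for Gbx2. The RefSeq start equals the outer end of the gene in the deposited table for Pou4f1, Dmbx1, Rorb and Lhx2 and lies 3 bases from it for Gbx2, while Tfap2b, Pax7 and Etv1 use another start. Pou4f1 and Gbx2, which moved in opposite directions, each held 1 CAGCTG, 118 and 51 bases before the start, and the other 6 windows held none of the 4 motifs. Among the called tectal genes, 16 of 23 had a promoter in the table. CAGCTG was found in 2 of the 16 (12.5%), against 12.8% of all 27025 promoters of this length. AGATAA and TGATAA were found in 1 each (6.25%), against 10.3% and 8.16% of all promoters, and TAATCC in none, against 6.38%. Among the called thalamic genes with a promoter, 12 of 13, CAGCTG and AGATAA were found in 1 each (8.33%), TGATAA in 2 (16.7%) and TAATCC in none. The shares of all promoters are those given above, 8.16% for TGATAA among them. Each share of the called genes rests on at most 2 promoters, so neither nearness nor difference can be read from it. A match is a description of the letters, not a bound site.

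Outside the factor lists, the largest rises included Ebf3, an early B-cell factor family member of developing neurons, with 191, 247 and 239 CPM in SC, against 1.75, 1.47 and 0.657 CPM in LGN (log2 fold 7.45 ± 0.29 (SE), adjusted p = 2.09e-06). Bnc2, a zinc-finger protein, had 13.3, 20.7 and 18.2 CPM in SC, against 0.292, 0.295 and 0 CPM in LGN (log2 fold 6.41 ± 0.58 (SE), adjusted p = 0.00018). Every LGN library lay far below every SC library in both genes. Cyp26b1, an enzyme that degrades retinoic acid, had 20.3, 24.3 and 17.3 CPM in SC, against 0.681, 0.737 and 1.07 CPM in LGN (log2 fold 4.61 ± 0.37 (SE), adjusted p = 8.67e-05). Serpind1, heparin cofactor II, had log2 fold 4.80 (adjusted p = 0.000978; 5.45 without LGN replicate 2), and Sp5, a Wnt-responsive zinc-finger factor, 3.78 (adjusted p = 0.000143). Among the largest falls, Frem3, an extracellular matrix protein, had 6.55, 0.0965 and 0.906 CPM in SC, against 39.8, 33.8 and 46.0 CPM in LGN (log2 fold -3.96 ± 0.75 (SE), adjusted p = 0.00916; -6.21 without SC replicate 1). Smyd1, a histone methyltransferase best known from muscle, had 18.3, 1.54 and 2.47 CPM in SC, against 70.4, 88.2 and 98.7 CPM in LGN (log2 fold -3.52 ± 0.70 (SE), adjusted p = 0.0112; -5.39 without SC replicate 1). Iltifb, a near-identical copy of Il22 whose reads cannot be assigned with certainty, had log2 fold -4.28 (adjusted p = 0.00224; -5.69 without SC replicate 1).

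Genes of fast transmission differed little as groups, with single exceptions. Among all genes tested, 4.41% were higher and 5.78% lower in SC. Of 9 inhibitory transmitter genes 1 was higher in SC, none was lower and 8 did not pass (median log2 fold 0.12). That gene was Gad1, which encodes the larger GABA-synthesizing enzyme, with 542, 541 and 489 CPM in SC, against 259, 196 and 273 CPM in LGN (log2 fold 1.11 ± 0.13 (SE), adjusted p = 0.000802). Gad2, the smaller isoenzyme, had 151, 122 and 160.0 CPM in SC, against 240.4, 185 and 179 CPM in LGN (log2 fold -0.48, adjusted p = 0.125), and Slc32a1, the vesicular GABA transporter, had 136, 91.5 and 88.3 CPM in SC, against 139.6, 122 and 145 CPM in LGN (log2 fold -0.36, adjusted p = 0.251). Gad1 and Gad2 libraries did not overlap between the regions, with Gad1 higher and Gad2 lower in SC, whereas those of Slc32a1 did overlap. SC and LGN libraries did not overlap in 31.0% of all genes tested. Slc32a1 passed as lower without SC replicate 1 (log2 fold -0.59, adjusted p = 0.0382) and Gad2 with DESeq2 (0.0479). Of 7 glutamate genes, 1 was lower (median -0.26): Slc17a7, vesicular glutamate transporter 1, with 5.17, 1.35 and 2.72 CPM in SC, against 20.4, 26.8 and 31.1 CPM in LGN (log2 fold -3.07 ± 0.34 (SE), adjusted p = 0.000548). The main subcortical transporter Slc17a6 had 325, 315 and 356 CPM in SC, against 426, 352 and 414 CPM in LGN (log2 fold -0.26, adjusted p = 0.279).

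Of 16 monoamine and cholinergic genes, 4 were lower in SC, none was higher and 12 did not pass (median log2 fold -0.06). The 4 were the transporter genes Slc6a4, Slc18a2 and Slc5a7 and the enzyme gene Hdc. Slc6a4, the serotonin transporter at chr11:76998603-77032340, which sensory thalamic neurons of young mice are known to express for a time, had 15.1, 0.0965 and 0 CPM in SC, against 109, 102 and 55.9 CPM in LGN (log2 fold -4.12 ± 1.05 (SE), adjusted p = 0.0368). Slc18a2, the vesicular monoamine transporter, had 44.1, 1.45 and 2.47 CPM in SC, against 259, 266 and 218 CPM in LGN (log2 fold -3.94 ± 0.91 (SE), adjusted p = 0.0243), and Hdc, histidine decarboxylase, had 4.31, 0.289 and 0.412 CPM in SC, against 16.1, 18.9 and 16.4 CPM in LGN (log2 fold -3.34 ± 0.69 (SE), adjusted p = 0.0140). In all 3 genes the 2 other SC libraries lay far below SC replicate 1. Without SC replicate 1, Slc6a4 had 1 count in SC, a ratio of 1989 in favour of LGN (counting interval 357 to 78589; adjusted p = 0.000108), against 17.4 times with it. Slc18a2 was then 124 times lower (adjusted p = 3.6e-05) and Hdc 46.9 times lower (adjusted p = 3.58e-05), against 15.4 and 10.1 times with it. Slc5a7, the choline transporter, was the other fall (log2 fold -1.11, adjusted p = 0.0399). The PTA library held 0.899 CPM of Slc6a4, and the remaining brain 6.84 and 12.9 CPM. Ddc, the decarboxylase of serotonin and dopamine synthesis, had log2 fold 0.99, adjusted p = 0.0530, and Maoa, which degrades serotonin, log2 fold -0.09, adjusted p = 0.691. The number of falls was 1 to 3 with 1 library left out. It was 1 with DESeq2, where Slc6a4 and Slc5a7 missed (adjusted p = 0.142 and 0.0569) and Slc18a2 was given no adjusted p. Slc5a7 also missed with the 6 SC and LGN libraries alone (0.0520), and Ddc passed as higher with DESeq2 (0.0419) and without SC replicate 3 (0.0380). Hdc passed in all 6 refits; Slc6a4 missed without SC replicates 2 or 3 or any LGN library (adjusted p up to 0.105), Slc18a2 without SC replicates 2 or 3 or LGN replicates 1 or 2 (up to 0.0617), and Slc5a7 without any library except LGN replicate 2 (up to 0.143).

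Genes of the neuropeptide list moved both ways: of 26 tested, 4 were higher and 5 lower (median -0.18). Tac1, the precursor of substance P, had 52.0, 54.8 and 50.3 CPM in SC, against 6.62, 6.41 and 6.24 CPM in LGN (log2 fold 3.03 ± 0.15 (SE), adjusted p = 9.92e-06), and Penk, the enkephalin precursor, had 4.82, 3.47 and 5.19 CPM in SC, against 22.2, 32.7 and 26.0 CPM in LGN (log2 fold -2.58 ± 0.21 (SE), adjusted p = 0.000106). The 2 genes moved in opposite directions, and neither overlapped between the regions, nor did 1552 of the 1557 genes that passed. Grp, gastrin-releasing peptide (log2 fold 2.28 ± 0.35 (SE), adjusted p = 0.00302), and Sst, somatostatin (log2 fold 1.13 ± 0.21 (SE), adjusted p = 0.00825), were higher too. The remaining rise was Nxph4 (log2 fold 2.93 ± 0.40 (SE), adjusted p = 0.00160), a neurexin ligand that is on the list but is not a neuropeptide. Npy, neuropeptide Y, had 10.8, 7.43 and 10.7 CPM in SC, against 31.3, 18.4 and 48.4 CPM in LGN (log2 fold -1.76 ± 0.32 (SE), adjusted p = 0.00723), and Gal, galanin, had 3.36, 0.965 and 1.32 CPM in SC, against 8.37, 7.81 and 13.1 CPM in LGN (log2 fold -2.36 ± 0.43 (SE), adjusted p = 0.00753; -3.08 without SC replicate 1). Cck, cholecystokinin, had 47.1, 2.70 and 5.19 CPM in SC, against 193, 216 and 187 CPM in LGN (log2 fold -3.43 ± 0.77 (SE), adjusted p = 0.0208) and was 49.5 times lower without SC replicate 1 (adjusted p = 1.5e-05), against 10.8 times with it. It missed the threshold without SC replicate 3 or LGN replicates 1 or 2 (adjusted p up to 0.0537). Pmch, the precursor of melanin-concentrating hormone, was the remaining fall (adjusted p = 0.0458) and missed in every refit except that without SC replicate 1 (up to 0.164), where 1 count was left in SC, a ratio of 118 (20.8 to 4666). The falls numbered 3 to 7 with 1 library left out, 7 of them without SC replicate 1 and 3 without SC replicate 3, LGN replicate 1 or LGN replicate 2. Of 13 calcium-binding proteins, Necab2 (log2 fold 0.91, adjusted p = 0.000489) and Hpcal1 (log2 fold 0.87, adjusted p = 0.00350) were higher, and Necab1 (log2 fold -1.09, adjusted p = 0.00412), S100a10 (log2 fold -1.27, adjusted p = 0.00106) and Pvalb (log2 fold -2.94, adjusted p = 0.0339) were lower. Pvalb, parvalbumin, missed without SC replicates 2 or 3 or LGN replicates 1 or 3 (adjusted p up to 0.125), and its log2 fold was -3.76 without SC replicate 1. Calb2, calretinin, had log2 fold -0.70, adjusted p = 0.103, and passed without SC replicate 3 (log2 fold -1.03, adjusted p = 0.0166) and with DESeq2 (0.0244).

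Eph receptors and ephrins, which order retinal axons along both axes of the map, divided by gene. Of 22 tested, 3 were higher and 4 lower in SC (median 0.21). Ephb1, a receptor that steers uncrossed retinal axons at the chiasm in mouse, had 135, 178 and 182 CPM in SC, against 45.8, 46.1 and 50.4 CPM in LGN (log2 fold 1.80 ± 0.12 (SE), adjusted p = 4.31e-05). Efnb2, a B-class ligand, had 34.5, 30.8 and 30.8 CPM in SC, against 17.5, 12.2 and 12.7 CPM in LGN (log2 fold 1.18 ± 0.19 (SE), adjusted p = 0.00351), and Epha8 was the third rise (log2 fold 0.73 ± 0.18 (SE), adjusted p = 0.0303). Epha3, an A-class receptor, had 13.2, 13.9 and 10.4 CPM in SC, against 31.0, 38.4 and 43.4 CPM in LGN (log2 fold -1.59 ± 0.17 (SE), adjusted p = 0.000489). Efna5, an ephrin that repels temporal axons in the posterior SC, had 40.2, 27.6 and 23.3 CPM in SC, against 59.2, 58.5 and 95.7 CPM in LGN (log2 fold -1.23 ± 0.24 (SE), adjusted p = 0.0104), with LGN replicate 3 the highest library. Epha4 (log2 fold -0.70, adjusted p = 0.00991) and Epha1 (log2 fold -1.96, adjusted p = 0.0159) were also lower. Epha7 (log2 fold 0.57, adjusted p = 0.104) and Ephb6 (log2 fold 0.28, adjusted p = 0.415) did not pass; Epha7 did with DESeq2 (adjusted p = 0.0440). Ephb1, Efnb2 and Epha3 passed in all 6 refits. Without SC replicate 2, Epha4, Efna5 and Epha1 missed (adjusted p = 0.0569, 0.0579 and 0.0788), which left 1 fall. Epha1 also missed without LGN replicates 1 or 3, and Epha8 without any library except SC replicate 3 (adjusted p up to 0.132), which left 2 rises.

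Of 54 other guidance genes, 12 were higher and 8 lower (median 0.02). Ntng2 (netrin-G2), a membrane-anchored netrin relative, had 48.7, 41.1 and 54.7 CPM in SC, against 4.38, 3.61 and 1.97 CPM in LGN (log2 fold 3.86 ± 0.25 (SE), adjusted p = 3.35e-05), whereas Ntng1 (netrin-G1), its relative, had 94.2, 69.9 and 113 CPM in SC, against 247, 290.2 and 363 CPM in LGN (log2 fold -1.70 ± 0.19 (SE), adjusted p = 0.000625). Rgmb and Rgma, repulsive guidance molecules that bind neogenin, likewise parted. Rgmb had 101, 110.0 and 109 CPM in SC, against 55.1, 54.8 and 61.4 CPM in LGN (log2 fold 0.90 ± 0.09 (SE), adjusted p = 0.000284), and Rgma had 205, 172 and 181 CPM in SC, against 355, 391 and 411 CPM in LGN (log2 fold -1.05 ± 0.10 (SE), adjusted p = 0.000258). Neo1, the neogenin receptor, had log2 fold 0.37, adjusted p = 0.195. Nrp2, a semaphorin co-receptor, had 194, 243 and 263 CPM in SC, against 46.2, 59.8 and 58.2 CPM in LGN (log2 fold 2.09 ± 0.16 (SE), adjusted p = 6.63e-05). Flrt3 (log2 fold 1.46, adjusted p = 0.00127), an adhesion and guidance protein, the repellent Slit2 (log2 fold 1.16, adjusted p = 0.00339) and the netrin-pathway antagonist Draxin (log2 fold 0.99, adjusted p = 0.00261) were higher. Sema7a, a membrane-anchored semaphorin, had 63.8, 54.1 and 57.5 CPM in SC, against 105, 102 and 108 CPM in LGN (log2 fold -0.85 ± 0.09 (SE), adjusted p = 0.000481), and Sema3g (log2 fold -1.32, adjusted p = 0.00460) and the semaphorin receptor Plxnd1 (log2 fold -0.69, adjusted p = 0.00796) were lower. Sema5a (log2 fold -0.63, adjusted p = 0.0205) missed without SC replicates 1 or 2 or LGN replicates 2 or 3 (adjusted p up to 0.101). Robo1, a Slit receptor, had log2 fold 0.23, adjusted p = 0.419. The rises numbered 11 to 13 and the falls 5 to 8 with 1 library left out, and the lowest count of falls came without SC replicate 2.

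Cadherins rose more often than they fell: of 29 tested, 8 were higher and 2 lower (median 0.23). Cdh1 (E-cadherin), an adhesion molecule best known from epithelia, had 5.77, 17.0 and 17.4 CPM in SC, against 1.56, 1.18 and 2.55 CPM in LGN (log2 fold 2.92 ± 0.46 (SE), adjusted p = 0.00357). Cdh13, an anchored cadherin without a cytoplasmic part, had 225, 264 and 309 CPM in SC, against 79.5, 86.5 and 98.9 CPM in LGN (log2 fold 1.59 ± 0.15 (SE), adjusted p = 0.000224). Cdh4 (log2 fold 1.55, adjusted p = 0.000214), Pcdh18 (log2 fold 1.65, adjusted p = 0.000745), Pcdh8 (log2 fold 1.37, adjusted p = 0.000258) and Pcdh20 (log2 fold 1.02, adjusted p = 0.00337) were the other named rises, and these 6 passed in all 6 refits. Cdh2 (N-cadherin) had log2 fold 0.19, adjusted p = 0.352. The falls, Cdh6 (log2 fold -0.73, adjusted p = 0.0481) and Pcdh9 (log2 fold -0.73, adjusted p = 0.0383), were not stable: 0 remained without SC replicate 1, SC replicate 2, LGN replicate 2 or LGN replicate 3, and 1 without SC replicate 3 or LGN replicate 1 (adjusted p up to 0.176 for Cdh6 and 0.160 for Pcdh9). Of 27 genes tied to retinal targeting and synapse partner choice, 7 were higher and 6 lower (median 0.08). Npnt (nephronectin), a matrix protein that in mouse SC recruits a class of retinal axons, had 216, 314 and 272 CPM in SC, against 26.5, 20.6 and 37.7 CPM in LGN (log2 fold 3.24 ± 0.23 (SE), adjusted p = 4.92e-05). Nptx2, a secreted pentraxin that clusters AMPA receptors, had 48.9, 58.0 and 54.4 CPM in SC, against 7.01, 6.27 and 9.53 CPM in LGN (log2 fold 2.82 ± 0.20 (SE), adjusted p = 4.38e-05), and Nptx1, its relative, 32.7, 30.6 and 24.6 CPM in SC, against 10.9, 11.5 and 8.30 CPM in LGN (log2 fold 1.52 ± 0.19 (SE), adjusted p = 0.000968). The reelin receptor Vldlr (log2 fold 1.18, adjusted p = 0.000112), the adhesion protein Mdga1 (log2 fold 1.42, adjusted p = 0.000305) and Megf11 (log2 fold 1.56, adjusted p = 0.000711), which spaces cells in retinal mosaics, were higher too. Lrrtm1, a postsynaptic neurexin ligand of retinogeniculate synapses, had 44.0, 28.1 and 36.3 CPM in SC, against 102, 84.6 and 104 CPM in LGN (log2 fold -1.42 ± 0.19 (SE), adjusted p = 0.00160). Cntn4, a contactin that directs retinal axons to accessory optic targets, had 39.3, 31.5 and 48.0 CPM in SC, against 70.1, 65.8 and 93.2 CPM in LGN (log2 fold -0.94 ± 0.18 (SE), adjusted p = 0.0100), and the proteoglycan Sdc3 was lower (log2 fold -0.61, adjusted p = 0.00695). Without SC replicate 2, 3 of the 6 falls were left: Tenm1 (log2 fold -1.05, adjusted p = 0.00995), a teneurin, missed there (adjusted p = 0.0527), Tenm4 (log2 fold -0.93, adjusted p = 0.0334) there and without SC replicate 1 (up to 0.127), and Cntn5 (log2 fold -0.83, adjusted p = 0.0361) without any SC library or LGN replicate 3 (up to 0.152). Tenm3, which shapes ipsilateral retinal maps in mouse, had log2 fold -0.08, adjusted p = 0.903.

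Growth factor and morphogen genes differed in 5 of 32 cases, 4 higher and 1 lower (median 0.11), where 4.41% of all genes tested were higher and 5.78% lower. Rspo2, which strengthens Wnt signals (log2 fold 1.73 ± 0.31 (SE), adjusted p = 0.00668), Axin2, a Wnt target that feeds back on the pathway (log2 fold 1.46 ± 0.18 (SE), adjusted p = 0.000841), Fgf10 (log2 fold 2.55 ± 0.34 (SE), adjusted p = 0.00143) and Hhip, an inhibitor of hedgehog ligands (log2 fold 3.01 ± 0.32 (SE), adjusted p = 0.000441), were higher in SC. Fgf13, an intracellular FGF relative that binds sodium channels, was lower (log2 fold -0.75 ± 0.11 (SE), adjusted p = 0.00292). The hedgehog receptor Ptch1 had log2 fold -0.34, adjusted p = 0.158, and the Wnt feedback gene Nkd1 log2 fold 0.41, adjusted p = 0.146. Bdnf, a neurotrophin counted among activity-regulated genes, had 9.56, 7.04 and 12.3 CPM in SC, against 3.89, 2.87 and 3.94 CPM in LGN (log2 fold 1.44 ± 0.25 (SE), adjusted p = 0.00614). Of 17 immediate-early genes, 3 were higher and none lower (median -0.03). Fosl2 (log2 fold 0.94, adjusted p = 0.00964) was the second, and Dusp1 (log2 fold 0.64, adjusted p = 0.0284) the third. Dusp1 passed only in the refit without LGN replicate 3 (adjusted p up to 0.107). Fos (log2 fold -0.28, adjusted p = 0.722) and Egr1 (log2 fold -0.03, adjusted p = 0.984) did not pass.

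Among 19 calcium and HCN channel genes, 3 were higher and 2 lower (median 0.02). Cacna2d1, an auxiliary calcium channel subunit, had 272, 261 and 282 CPM in SC, against 84.1, 85.7 and 92.8 CPM in LGN (log2 fold 1.63 ± 0.12 (SE), adjusted p = 6.76e-05). Cacna1d, an L-type pore subunit, was higher (log2 fold 0.95 ± 0.18 (SE), adjusted p = 0.00964). The T-type pore Cacna1g, known for burst firing of thalamic relay neurons, had 226, 199 and 142 CPM in SC, against 194, 201 and 162 CPM in LGN (log2 fold 0.02, adjusted p = 0.966), and the groups overlapped. The falls were small: Hcn2 (log2 fold -0.41, adjusted p = 0.0236) passed only in the refit without SC replicate 3 (adjusted p up to 0.117), as did Cacna1c (log2 fold -0.42, adjusted p = 0.0480; up to 0.188). Of 35 sodium and potassium channel genes, 6 were higher and 3 lower (median 0.15). Kcnip1 (log2 fold 0.85, adjusted p = 0.00121) and Kcnip4 (log2 fold 0.75, adjusted p = 0.00764), partners of A-type channels, were higher, and Kcnq3 (log2 fold -0.92, adjusted p = 0.00373), an M-current subunit, and Kcnj6 (log2 fold -1.29, adjusted p = 0.00362), a G-protein-gated inward rectifier, were lower; all 4 passed in every refit. Without SC replicate 2 or LGN replicate 1, 2 rises were left of the 6, without SC replicate 3 or LGN replicate 2 there were 3, and without LGN replicate 3 there were 4.

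Glutamate, GABA, glycine and nicotinic receptor genes were divided too. Of 24 glutamate receptor genes, 3 were higher and 3 lower (median 0.05). Grik3, a kainate receptor subunit, had 102, 90.9 and 101 CPM in SC, against 214, 199 and 229 CPM in LGN (log2 fold -1.13 ± 0.10 (SE), adjusted p = 0.000156) and passed in all 6 refits. Grin2a (log2 fold 1.54, adjusted p = 0.0322), Gria1 (log2 fold 0.63, adjusted p = 0.0134), Gria4 (log2 fold -0.40, adjusted p = 0.0169) and Grm5 (log2 fold -0.66, adjusted p = 0.0388) each missed in several refits (adjusted p up to 0.107, 0.0654, 0.0642 and 0.163): 1 rise was left without SC replicate 2, LGN replicate 1 or LGN replicate 2, and 1 fall without SC replicate 1, SC replicate 2 or LGN replicate 3. The NMDA receptor subunit of the young brain, Grin2b, had log2 fold -0.36, adjusted p = 0.433. Of 27 GABA-A, GABA-B, glycine and nicotinic receptor genes, 3 were higher and 3 lower (median 0.12). Gabra5 (log2 fold 0.71, adjusted p = 0.00403) and Gabrq (log2 fold 1.10, adjusted p = 0.00633), GABA-A subunits, were higher, and Glra2 (log2 fold -1.30 ± 0.15 (SE), adjusted p = 0.000585), the glycine receptor subunit of the young brain, was lower, in all 6 refits. Glra1, the subunit of the mature form, had 1.81, 1.25 and 2.06 CPM in SC, against 0, 0.147 and 0.575 CPM in LGN (log2 fold 2.74 ± 0.76 (SE), adjusted p = 0.04997) and passed only in the refit without LGN replicate 3 (log2 fold 4.20), with adjusted p up to 0.147 in the others and 0.0502 with RLE scaling. Chrna4 (log2 fold -0.64, adjusted p = 0.00916), a nicotinic subunit, missed without SC replicate 2 (adjusted p = 0.0527), and Gabra2 (log2 fold -0.65, adjusted p = 0.0328) without any library except SC replicate 1 (up to 0.124).

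Modulatory receptor genes passed more often as rises: of 44 tested, 13 were higher and 5 lower (median 0.37). Serotonin receptors were divided by gene. Htr1a, a Gi-coupled receptor, had 17.4, 19.0 and 20.5 CPM in SC, against 5.55, 7.00 and 8.95 CPM in LGN (log2 fold 1.40 ± 0.19 (SE), adjusted p = 0.00166), whereas Htr1b, a Gi-coupled receptor of thalamic axon terminals in mouse, had 27.7, 11.4 and 16.6 CPM in SC, against 85.4, 63.6 and 52.1 CPM in LGN (log2 fold -1.85 ± 0.30 (SE), adjusted p = 0.00383). Htr2a had 6.20, 3.38 and 7.00 CPM in SC, against 1.46, 1.25 and 1.48 CPM in LGN (log2 fold 1.98 ± 0.38 (SE), adjusted p = 0.0101), whereas Htr2c, its Gq-coupled relative, had 19.9, 17.5 and 25.9 CPM in SC, against 60.2, 42.8 and 111 CPM in LGN (log2 fold -1.75 ± 0.32 (SE), adjusted p = 0.00796). Htr7, a Gs-coupled receptor, was lower, with 22.6, 16.8 and 19.4 CPM in SC, against 54.7, 54.9 and 54.5 CPM in LGN (log2 fold -1.48 ± 0.13 (SE), adjusted p = 0.000161), and Htr5b was higher (log2 fold 2.39 ± 0.36 (SE), adjusted p = 0.00260). None of these 6 genes overlapped between the regions, nor did 1552 of the 1557 genes that passed. All 6 genes passed in all 6 refits. Adra2a, the alpha-2A adrenergic receptor, had 33.3, 31.4 and 32.9 CPM in SC, against 9.15, 10.2 and 10.5 CPM in LGN (log2 fold 1.71 ± 0.13 (SE), adjusted p = 8.58e-05), and Cnr1, the cannabinoid receptor of axon terminals, had 159, 157 and 169 CPM in SC, against 68.6, 41.3 and 48.5 CPM in LGN (log2 fold 1.62 ± 0.16 (SE), adjusted p = 0.000322). Sstr1, a somatostatin receptor, was also higher (log2 fold 1.31 ± 0.24 (SE), adjusted p = 0.00793), and Drd5, a dopamine receptor, lower (log2 fold -1.96 ± 0.20 (SE), adjusted p = 0.000354). Among the refits with 1 library left out, Sstr2 (log2 fold -0.95, adjusted p = 0.0350) passed only without LGN replicate 3 (adjusted p up to 0.113), and it missed with the 6 SC and LGN libraries alone (0.0575). The rises numbered 6 without SC replicate 2, 7 without LGN replicate 1 or 3, 8 without LGN replicate 2 and 11 without SC replicate 1 or 3.

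Synaptic vesicle and release genes were called often, with small folds: 17 of 30 passed, 6 higher and 11 lower (median -0.08), and 4 rises and 1 fall reached 2-fold. Syt4, an atypical synaptotagmin, had 439, 468 and 530.0 CPM in SC, against 177, 156 and 222 CPM in LGN (log2 fold 1.37 ± 0.14 (SE), adjusted p = 0.000267), and Syt1, the main calcium sensor of release, had 658, 567 and 636 CPM in SC, against 1080.0, 978 and 1146 CPM in LGN (log2 fold -0.78 ± 0.12 (SE), adjusted p = 0.00243). Syt2, the fast sensor of mature synapses, was higher (log2 fold 1.52 ± 0.20 (SE), adjusted p = 0.00149). The complexins Cplx2 (log2 fold 1.15 ± 0.09 (SE), adjusted p = 8.67e-05) and Cplx3 (log2 fold 2.12 ± 0.30 (SE), adjusted p = 0.00193) and the membrane fusion protein Snap25, with 508, 499.8 and 524 CPM in SC, against 356, 354 and 365 CPM in LGN (log2 fold 0.51 ± 0.08 (SE), adjusted p = 0.00285), were higher. Sv2b, a vesicle glycoprotein, had 55.9, 52.9 and 59.9 CPM in SC, against 127, 117 and 181 CPM in LGN (log2 fold -1.33 ± 0.16 (SE), adjusted p = 0.000744). The active-zone proteins Bsn (log2 fold -0.63, adjusted p = 0.00215), Rims1 (log2 fold -0.66, adjusted p = 0.00254) and Unc13c (log2 fold -0.79, adjusted p = 0.00351) and the syntaxin Stx1a (log2 fold -0.73, adjusted p = 0.00369) were lower, and each of these genes passed in all 6 refits. Vamp1 (log2 fold 0.58, adjusted p = 0.0297) passed only without SC replicate 1 (adjusted p up to 0.114). Syp (log2 fold -0.21, adjusted p = 0.369) and Vamp2 (log2 fold -0.18, adjusted p = 0.284), found in nearly all synapses, did not pass. The falls numbered 6 without SC replicate 2, SC replicate 3 or LGN replicate 3, 8 without LGN replicates 1 or 2 and 9 without SC replicate 1.

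**Figure D4:**
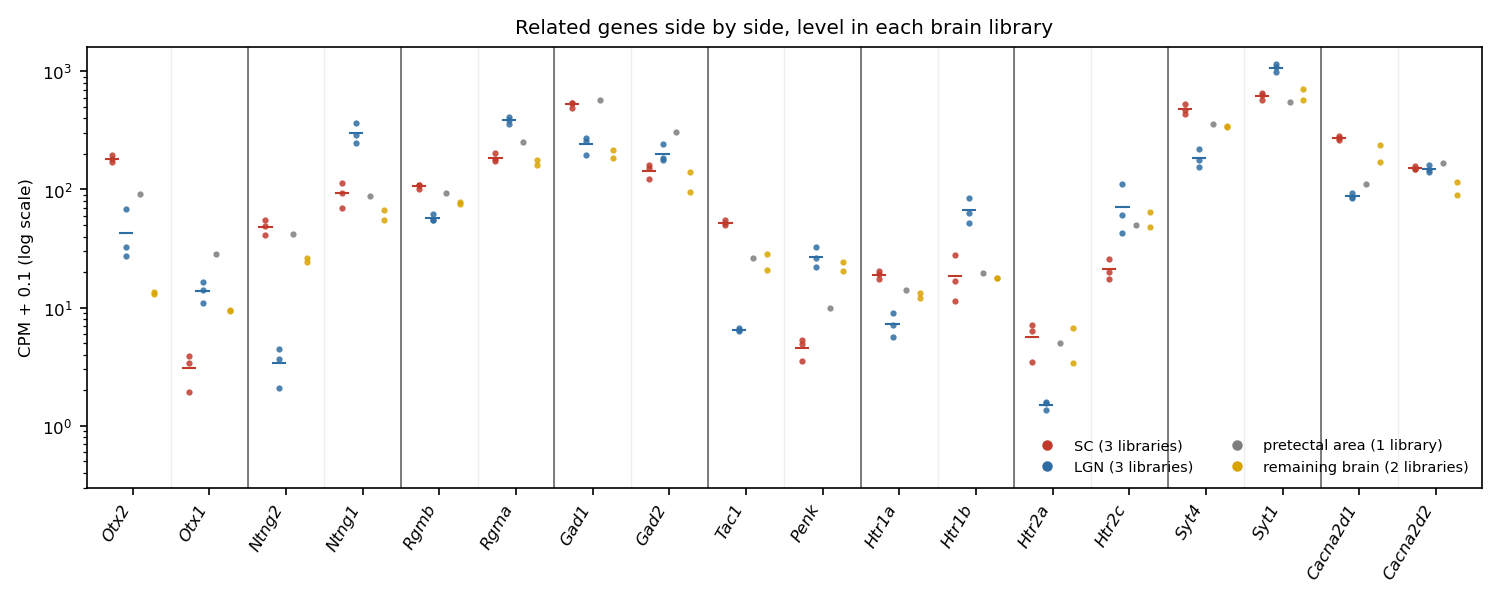
Level of pairs of related genes, and of the peptide genes Tac1 and Penk, as CPM + 0.1 on a log scale. Each point is 1 library, in the order SC, LGN, PTA and remaining brain, bars mark the SC and LGN means, and upright lines divide the pairs. In pairs such as Ntng2 and Ntng1 or Htr1a and Htr1b the SC points lie above the LGN points for the first gene and below them for the second. Cacna2d2 shows little difference beside Cacna2d1, and Gad2, whose SC points lie below its LGN points, shows a smaller difference than Gad1.

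Markers of other tissue that a dissection could hold were counted in the same fit. Of 15 telencephalic genes, 5 were higher and 4 lower in SC. The rises in that list were Neurod6 (log2 fold 3.37, adjusted p = 0.000211; 4.01 without LGN replicate 2), Neurod2 (log2 fold 3.04, adjusted p = 0.000638), Emx2 (log2 fold 2.87, adjusted p = 0.000149), Bcl11b (log2 fold 2.85, adjusted p = 2.88e-05) and Lmo4 (log2 fold 1.00, adjusted p = 0.00359), and the falls included Mef2c (log2 fold -2.48, adjusted p = 0.000258), Tbr1 (log2 fold -2.61, adjusted p = 0.00647; -3.40 without SC replicate 1) and Eomes, with 2 counts in SC and 28 in LGN. Eomes (adjusted p = 0.0495) passed only in the refit without LGN replicate 1 (up to 0.140 in the others) and missed without rounding of the estimated counts (0.0570). Summed over the list, the level was 340.0, 339 and 354 CPM in SC, 279, 284 and 327 CPM in LGN, 219.9 CPM in PTA and 1573 and 1532 CPM in the remaining brain. None of 10 hindbrain and cerebellar genes tested passed, and their sum was at most 2.76 CPM in any SC or LGN library. Of 8 habenular and pineal genes, Irx2 was higher (log2 fold 2.16 ± 0.23 (SE), adjusted p = 0.000469) and Lrrc55 lower (log2 fold -0.68, adjusted p = 0.0233), the second only without SC replicate 1 or LGN replicate 3 among the refits (adjusted p up to 0.105). The part of such tissue in the differences above was not tested.

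Oligodendrocyte genes that passed were lower in SC, while the other glial and vascular lists gave few calls. Of 19 oligodendrocyte genes, 6 were lower in SC and none higher (median -0.59), and the summed level was 911, 754 and 846 CPM in SC, against 1401, 1261 and 893 CPM in LGN. Mag, a myelin adhesion protein, had 4.14, 3.18 and 3.54 CPM in SC, against 10.0, 11.1 and 8.13 CPM in LGN (log2 fold -1.42 ± 0.26 (SE), adjusted p = 0.00744). Myrf, the factor that drives myelin genes, had 5.00, 5.98 and 5.76 CPM in SC, against 16.0, 15.7 and 9.61 CPM in LGN (log2 fold -1.30 ± 0.25 (SE), adjusted p = 0.00911), and both passed in all 6 refits. The lineage factor Olig2 had log2 fold -0.48, adjusted p = 0.429. The falls numbered 2 without SC replicate 2, 3 without LGN replicates 1 or 2, 4 without SC replicate 3, 7 without SC replicate 1 and 8 without LGN replicate 3. Of 21 astrocyte and radial glia genes, Agt (log2 fold -0.76, adjusted p = 0.00744), angiotensinogen, and Gfap (log2 fold -0.73, adjusted p = 0.0459) were lower. Among all genes tested, 5.78% were lower. Among the refits with 1 library left out, Gfap passed only without LGN replicate 3 (adjusted p up to 0.182), and it missed with the 6 SC and LGN libraries alone (0.0547). None of 15 microglial, 14 vascular, 24 cell-cycle, 13 mitochondrial or 6 red-cell genes passed in either direction at this depth. Medians were -0.03, 0.20, 0.15, 0.15 and 0.69, and Hba-a1 and Hba-a2, near-identical copies among the red-cell genes, share reads.

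Choroid plexus genes stood apart in single libraries. Of 17 meningeal, choroid plexus and ependymal genes, 4 were lower (median -0.40). Ttr, transthyretin, had 28.3, 0.675 and 4.28 CPM in SC, against 957, 13.3 and 5375 CPM in LGN (log2 fold -7.56 ± 1.87 (SE), adjusted p = 0.0321). Folr1, a folate receptor, had 0.603, 0.386 and 0.741 CPM in SC, against 6.33, 0.885 and 34.6 CPM in LGN (log2 fold -4.55 ± 1.15 (SE), adjusted p = 0.0356), and Clic6, an intracellular chloride channel protein, had 1.12, 0.965 and 1.40 CPM in SC, against 16.1, 1.55 and 71.8 CPM in LGN (log2 fold -4.66 ± 1.12 (SE), adjusted p = 0.0291). LGN replicate 3 was the highest library in all 3 genes and LGN replicate 2 was near the SC level. Without LGN replicate 3, log2 folds were -5.44 for Ttr, -2.58 for Folr1 and -2.88 for Clic6 (adjusted p = 0.0769, 0.0996 and 0.0695), and none of the 4 passed. Without SC replicate 1 the log2 fold of Ttr was -9.67. None of the 4 passed without SC replicates 2 or 3 either, and 1 did without SC replicate 1. Dynlrb2, a dynein light chain of cilia, was the other fall (log2 fold -3.03, adjusted p = 0.0441; -2.31 without LGN replicate 3).

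**Figure D5:**
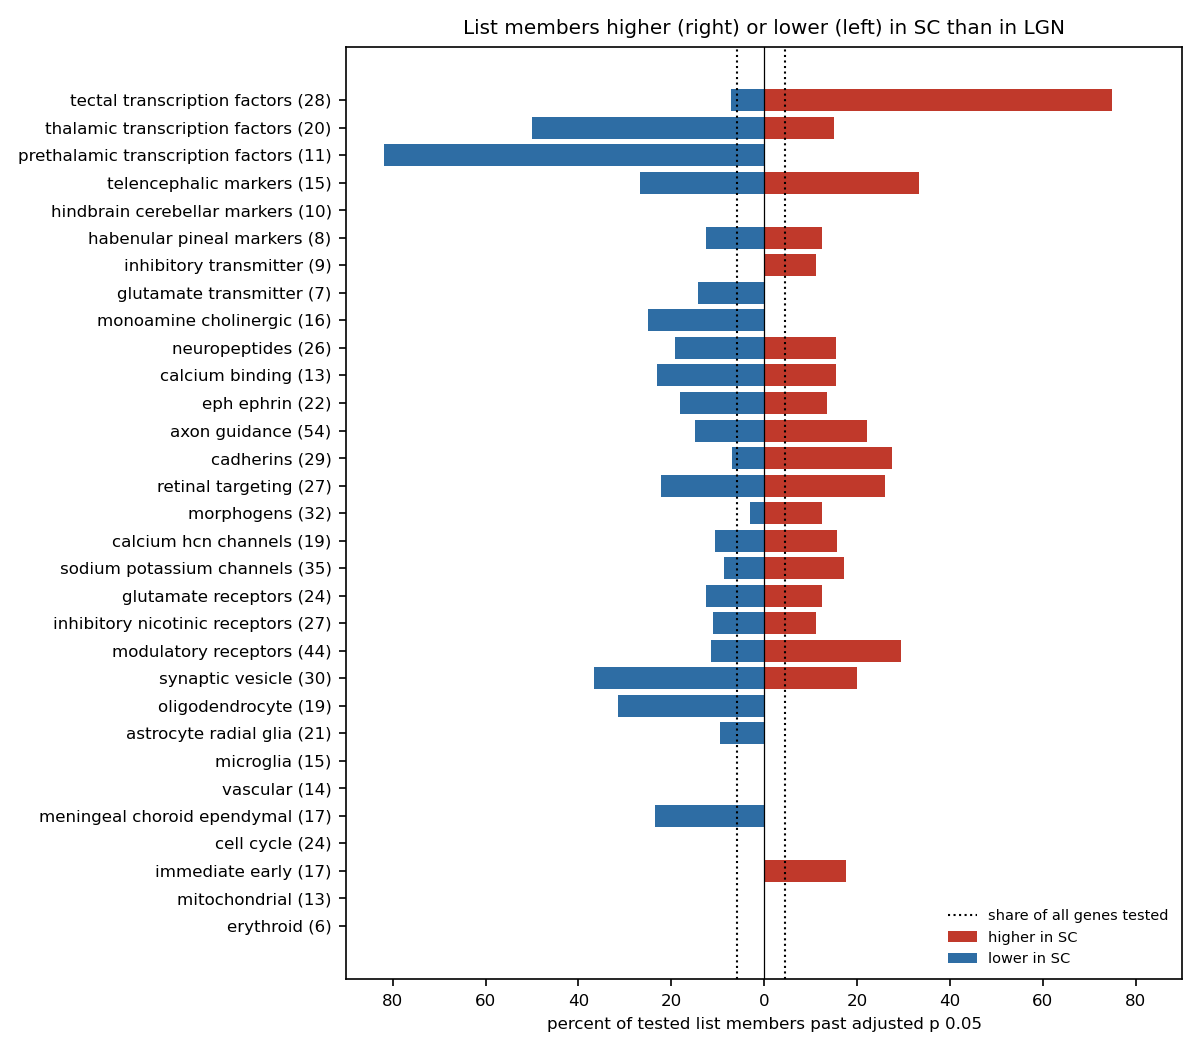
Percent of the tested members of each gene list (number in brackets) that passed, higher in SC to the right and lower to the left, with dotted lines at the shares among all genes tested, 4.41% and 5.78%. Tectal factors reach furthest to the right and prethalamic factors furthest to the left, and most lists of neuronal genes have members on both sides.

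The single PTA library, from the tissue between the 2 regions, was compared by level only, with no test. Among the 346 genes at least 2-fold higher in SC, PTA was nearer to SC in 187 (54.0%), and among the 360 at least 2-fold lower it was nearer to SC in 302 (83.9%). It lay between the ranges of the regions in 189 and 128 genes. Single factors showed both patterns. PTA held 215 CPM of Tfap2b and 55.5 CPM of Pax7, both between the regions, but 3.10 CPM of Pou4f1 and 1.60 CPM of Barhl1, close to LGN. For Tcf7l2 it held 1196 CPM and for Otx1 28.2 CPM, above every SC and LGN library. Rorb (19.1 CPM) and Etv1 (18.3 CPM) stood at the LGN level in PTA, and Gad1 (574 CPM) and Ntng2 (42.2 CPM) at the SC level. Slc18a2 and Sp9 stood at 5.69 and 0.200 CPM. The remaining brain was nearer to SC in 56.9% of the higher and 58.9% of the lower genes.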

How the data were processed

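RNA was measured in 9 libraries of P3 mouse brain, and 6 of them, 3 SC and 3 LGN, were compared; retinal libraries of the series were not used here. Per the labels' protocols, libraries were made from poly(A) RNA by a strand-marking method and read paired-end at 125 bases. The deposited values are estimated counts per Ensembl transcript, not normalized, and the deposited GC column holds percent and entered no fit. Trimmomatic 0.32, Bowtie2 2.2.1, eXpress 1.3.1 and build GRCm38.p3 are named in the submitters' processing notes. Whether counting used strand is not given in the sources used here, so overlapping genes, antisense genes and near-identical copies are uncertain.

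Estimated counts of 88198 transcripts were summed to 30735 genes and rounded to whole numbers. No row lacked a gene name, and 27 symbols stored as dates were restored by gene ID. Differences were tested by edgeR's quasi-likelihood method (edgeR 4.0.16 in R 4.3.3) after TMM scaling. The filterByExpr filter (minimum count 10) left 15288 genes, over which p-values were adjusted by Benjamini and Hochberg's method. All 9 brain libraries shared 1 fit (5 residual degrees of freedom, biological coefficient of variation 18.4%), and every adjusted p in the text comes from it or from a named refit. The threshold was 0.05. An SE was obtained as the absolute log2 fold over the square root of the F statistic. Counting intervals are exact at 95% and, like bounds against 3 counts, cover counting error only. Plots of levels add 0.1 CPM. On simulated data, 14%, 74%, 96% and 98% of genes changed 1.5-, 2-, 4- and 8-fold were recovered among 14744 genes, with 10 unchanged genes called. The simulation gave every gene the same spread, changed 50 genes per fold and held no library that stood apart. Its rates need not hold for these data.

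Groups follow the titles. Named genes are the 15 largest called rises and falls with at least 10 CPM and no overlap, up to 6 called members of each list in each direction and up to 6 that did not pass; exceptions are named as such. The members and lists were chosen with earlier results of these data known, and lists are described by counts and medians with no set test. Alternatives changed the libraries in the fit, a replicate block, the scaling, the tool (DESeq2 1.42.0), the filter and rounding, and left out each library. Matched by symbol, sequences come from RefSeq (GRCm38.p6). Xist and Dlx6os1 are not analysed here, and results of some list members are not reported here.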

Additional observations from a re-analysis of the deposited data

How the results depend on the processing

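Every named gene that passed kept its direction under all 15 alternatives run. The count of 1557 genes was 1775 with the 6 SC and LGN libraries alone, 1570 and 1589 with other scalings, 2000 with DESeq2, 1531 with no filter and 1554 without rounding. With 1 library left out it was 770 to 1462 (357 to 643 higher, 413 to 819 lower), and that of genes at least 2-fold apart 460 to 740 (222 to 393 lower). Without both libraries numbered 1, chosen after seeing the data, 837 passed, 356 higher and 481 lower. Libraries that share a replicate number deviated together at r = 0.2, 0.0707 and 0.218 across genes, and each library correlated best with its own number. All other pairs of SC and LGN libraries had a negative r, from -0.201 to -0.0157. Deviations were taken from the mean of each region, so they sum to 0 within it. The negative values therefore follow in part from the positive ones and are no separate observation. Among SC and LGN libraries, Ddx3y was above 0 CPM only in those numbered 1. The labels do not say whether libraries of the same number share animals, and the main fit took no pairs. With the number as a replicate block, 2316 genes passed in 8 libraries, 1086 of them higher, and 3003 in 6 libraries, 1457 higher and 1546 lower. In 8 libraries with the block, Gfap, Pmch and Ttr missed (adjusted p = 0.0615, 0.0649 and 0.0684) and Calb2, Gad2, Grin2b, Neo1 and Sp8 newly passed; in 6 libraries, Gfap, Slc5a7 and Sstr2 missed (0.0746, 0.0540 and 0.0546) and Calb2, Gad2, Grin2b, Neo1, Nkd1, Slc17a6, Sp8, Syp and Tal2 newly passed. Counts of list members that moved by more than 1.5 times are given against the main count. With DESeq2 there were 1 against 0 monoamine and cholinergic, 5 against 3 inhibitory and nicotinic receptor, 1 against 0 meningeal and choroid and 1 against 0 red-cell rises, and 1 against 0 inhibitory transmitter, 1 against 4 monoamine and cholinergic, 4 against 2 cadherin, 2 against 1 growth factor and morphogen, 5 against 2 astrocyte and 1 against 0 immediate-early falls. With the 6 SC and LGN libraries alone there were 1 against 0 hindbrain and 1 against 0 cell-cycle rises, and 2 against 4 telencephalic, 2 against 1 glutamate and 2 against 1 growth factor and morphogen falls. With the block in 8 libraries there were 7 against 4 neuropeptide, 10 against 6 sodium and potassium channel, 7 against 3 inhibitory and nicotinic receptor and 1 against 0 cell-cycle rises, and 1 against 0 inhibitory transmitter, 5 against 2 cadherin, 3 against 1 growth factor and morphogen, 4 against 2 calcium and HCN channel, 5 against 3 sodium and potassium channel, 5 against 3 glutamate receptor and 1 against 0 immediate-early falls. With the block in 6 libraries there were 1 against 0 hindbrain, 1 against 0 glutamate, 5 against 3 calcium and HCN channel, 6 against 3 inhibitory and nicotinic receptor, 1 against 0 cell-cycle and 2 against 0 red-cell rises, and 1 against 0 inhibitory transmitter, 3 against 1 glutamate, 8 against 5 neuropeptide, 5 against 2 cadherin, 4 against 1 growth factor and morphogen, 4 against 2 calcium and HCN channel, 6 against 3 sodium and potassium channel, 5 against 3 glutamate receptor, 1 against 0 cell-cycle and 1 against 0 immediate-early falls. Of 190 named genes that passed, 130 missed under none of the 15 alternatives, and DESeq2 gave 2 of the named genes that passed no adjusted p. Without both libraries numbered 1, 48 missed. The cause of the losses was not tested. Some genes that did not pass changed sign. Cacna1g had a log2 fold of -0.13 to 0.19 with 1 library left out, -0.0021 with the replicate block in 8 libraries and -0.0963 without both libraries numbered 1. Egr1 had a log2 fold of -0.83 to 0.44 with 1 library left out. En1 had a log2 fold of 0.35 to 4.62 with 1 library left out and -0.11 without both libraries numbered 1. Lhx1 had a log2 fold of -0.13 to 0.16 with 1 library left out and -0.21 without both libraries numbered 1. Prph had a log2 fold of -0.69 to 0.0537 with 1 library left out. Tenm3 had a log2 fold of -0.31 to 0.33 with 1 library left out. Depth limits genes near 0 counts, where ratios rest on few reads.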

Other observations

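The gene families below were chosen after their values were seen, so their counts are descriptions. All 6 Iroquois homeobox genes were higher in SC. These factors lie in 2 clusters and pattern the diencephalon and midbrain. Irx5 had 20.1, 20.1 and 12.5 CPM in SC, against 2.43, 2.51 and 2.38 CPM in LGN (log2 fold 2.84 ± 0.24 (SE), adjusted p = 0.00012), and Irx1 had 33.3, 33.2 and 24.1 CPM in SC, against 13.0, 13.2 and 9.04 CPM in LGN (log2 fold 1.36 ± 0.22 (SE), adjusted p = 0.00433). Irx3 (log2 fold 2.69 ± 0.37 (SE), adjusted p = 0.00164) and Irx2 (log2 fold 2.16) were higher as well. Irx6 had 9.30, 3.57 and 3.70 CPM in SC, against 0.0973, 0.0737 and 0 CPM in LGN and Irx4 3.27, 4.73 and 0.906 CPM in SC, against 0, 0 and 0 CPM in LGN, with 2 and 0 counts over the LGN libraries (adjusted p = 0.000711 and 0.0143). Irx4 missed the threshold without SC replicate 2 (adjusted p = 0.0576).

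Heparan sulfate sulfotransferases, the enzymes that add sulfate groups to the sugar chains on which many guidance cues act, divided by gene: of 14 tested, 3 were higher and 6 lower in SC (median log2 fold -0.40). Hs3st2 had 29.6, 31.3 and 29.6 CPM in SC, against 5.06, 5.01 and 3.61 CPM in LGN (log2 fold 2.72 ± 0.18 (SE), adjusted p = 3.35e-05), and Hs3st3a1 (log2 fold 2.72) and Hs3st3b1 (3.20) were higher (adjusted p = 0.00142 and 0.000472). Hs6st3 had 8.01, 5.40 and 7.33 CPM in SC, against 25.7, 25.1 and 33.1 CPM in LGN (log2 fold -2.01 ± 0.19 (SE), adjusted p = 0.00025), and Hs6st1, Hs6st2, Hs3st1, Hs3st5 and Ndst3 were lower, with log2 folds of -0.80, -0.75, -1.59, -0.82 and -0.91 (adjusted p = 0.000415, 0.00930, 0.00148, 0.00260 and 0.0134). The 3 tested 6-O-sulfotransferases were lower, while 3 of the 3-O-sulfotransferases were higher and 2 lower. Hs6st2 missed the threshold without SC replicate 2 (adjusted p = 0.0507) and Ndst3 without SC replicate 2 or LGN replicate 2 (up to 0.0675).

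Of 5 neurofilament genes, which encode the intermediate filaments of large axons, 4 were lower in SC. Nefm had 140.4, 52.5 and 93.1 CPM in SC, against 451, 461 and 511 CPM in LGN (log2 fold -2.31 ± 0.29 (SE), adjusted p = 0.000978), and Nefl 382, 218 and 363 CPM in SC, against 891, 856 and 988 CPM in LGN (log2 fold -1.51 ± 0.19 (SE), adjusted p = 0.00107). Nefh (log2 fold -1.82, adjusted p = 0.000587) and Ina (log2 fold -0.61, adjusted p = 0.00306) were lower as well, and Prph (log2 fold -0.34, adjusted p = 0.725) did not pass. SC replicate 2 was the lowest library for Nefm and Nefl. The receptor Kit and its ligand Kitl parted between the regions: Kit had 85.5, 95.03 and 97.5 CPM in SC, against 30.1, 30.8 and 31.0 CPM in LGN (log2 fold 1.60 ± 0.09 (SE), adjusted p = 2.67e-05), and Kitl 237, 124 and 143 CPM in SC, against 887, 806 and 1076 CPM in LGN (log2 fold -2.46 ± 0.23 (SE), adjusted p = 0.000218).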
